A study of Sus scrofa with 23 samples.

Results

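A set of 8 genes stands here for the glucocorticoid system of the prefrontal cortex: both corticosteroid receptors (NR3C1 and NR3C2), the cortisol-regenerating enzyme HSD11B1, and 5 genes whose transcription the glucocorticoid receptor is known to raise (FKBP5, TSC22D3, SGK1, ZBTB16 and KLF9). They were chosen by name and not by a measured value, with earlier results of these data known. The rows of the deposited table were matched to them by pig gene symbol, which found 7 of the 8 names among 25880 gene rows, 1 row for each. TSC22D3 had no match by symbol and was not analysed here. RNA was measured in the cortex of 23 adolescent female Danish pigs of 20 kg, each giving 1 poly-A selected library. The first group had received 1 intravenous injection of 0.08 mg/kg psilocybin and was killed 1 day later (6 pigs). Its controls had received saline and were killed 1 day later (5 pigs). The other groups were killed 1 week after psilocybin (6 pigs) and 1 week after saline (6 pigs). All pigs were injected while awake, all were killed with an intravenous pentobarbital overdose, and the whole brain was then snap frozen. The labels name no genotype.

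Cortisol, the main glucocorticoid of the pig, enters cells and binds 2 related nuclear receptors. The mineralocorticoid receptor, encoded by NR3C2, binds it tightly and is largely occupied at rest in brain, while the glucocorticoid receptor, encoded by NR3C1, binds it less tightly and fills during stress and at the daily hormone peak. Bound receptors move to the nucleus and change transcription. HSD11B1 converts inert cortisone back to cortisol inside the cell. Psilocybin is a tryptamine whose metabolite psilocin activates serotonin receptors, above all 5-HT2A, and drugs that activate this receptor are known to raise circulating cortisol for some hours in people. The comparisons below address whether transcripts of the receptors, the enzyme and the response genes differed 1 day or 1 week after the dose. Plasma cortisol was not among the values used here.

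None of the 7 genes differed between psilocybin and saline at 1 day or at 1 week beyond the spread between pigs, and the log2 fold changes ran from -0.15 to 0.12. The estimates farthest from 0 were a lower HSD11B1 at 1 day (-0.15 ± 0.14, SE) and a higher FKBP5 at 1 week (0.12 ± 0.14, SE; 0.27 in batch 1 and -0.03 in batch 2). Between batches, where 32.9% of all genes passed, 2 of the 7 did: KLF9, 1.26-fold higher in batch 2, and FKBP5, 1.20-fold higher, a call lost when any 1 of 11 pigs was left out. Of 63 relations with cell type markers, chosen after the data were seen, that of KLF9 with excitatory neuron markers had the largest correlation over all pigs.

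Library totals lay between 9504421 and 18654626 counts. The labels divide the pigs into 2 batches of 11 and 12, crossed with the groups (3 and 3 in each group of 6, 2 and 3 in the saline group at 1 day), and do not say what a batch was. The markers of neurons, astrocytes and oligodendrocytes were abundant in every library of this cortex tissue, while those of the choroid plexus and ependyma summed to 2.996 to 13.6 CPM (counts relative to the scaled library total). With batch effects taken out, principal component 1 carried 21.3% of the variance. The 3 libraries with the highest scores on it, left out together in some fits below, were psilocybin animal 6 at 1 week (28.09) and, among the saline pigs, animal 5 at 1 day (39.8) and animal 1 at 1 week (38.03). The next was psilocybin animal 1 at 1 day (20.41), and the other 19 lay at 9.30 or below. Numbers name the pigs of a group in accession order. In tissue of mixed cells, fewer cells of a type and less RNA per cell cannot be told apart.

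Divided by exon length, KLF9 was the most abundant of the 7 genes, at 17.98 ± 2.66 CPM per kilobase (SD, n = 23). ZBTB16 followed at 11.7 ± 1.125, and both kept this order in 23 of 23 pigs, with ranges that did not overlap. HSD11B1 (5.51 ± 1.02) and SGK1 (5.23 ± 0.622) came next and were not separated, HSD11B1 being the higher in 15 of 23 pigs. NR3C1 had 3.29 ± 0.435 CPM per kilobase and lay below SGK1 in 22 of 23 pigs. NR3C2 had 2.58 ± 0.392 and lay below NR3C1 in 21 of 23, and FKBP5, at 2.43 ± 0.434, was below NR3C2 in 15 of 23. Both receptor genes were thus among the 3 least abundant of the set, and KLF9 and ZBTB16 stood at the top. As a share of the mean, the spread over all pigs was widest for HSD11B1 (coefficient of variation 18.5%) and FKBP5 (17.9%) and narrowest for ZBTB16 (9.61%). Counts of the 7 genes ranged from 99 (FKBP5) to 2110.5 (KLF9) per library, so that none was limited by a count near 0.

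**Figure D1:**
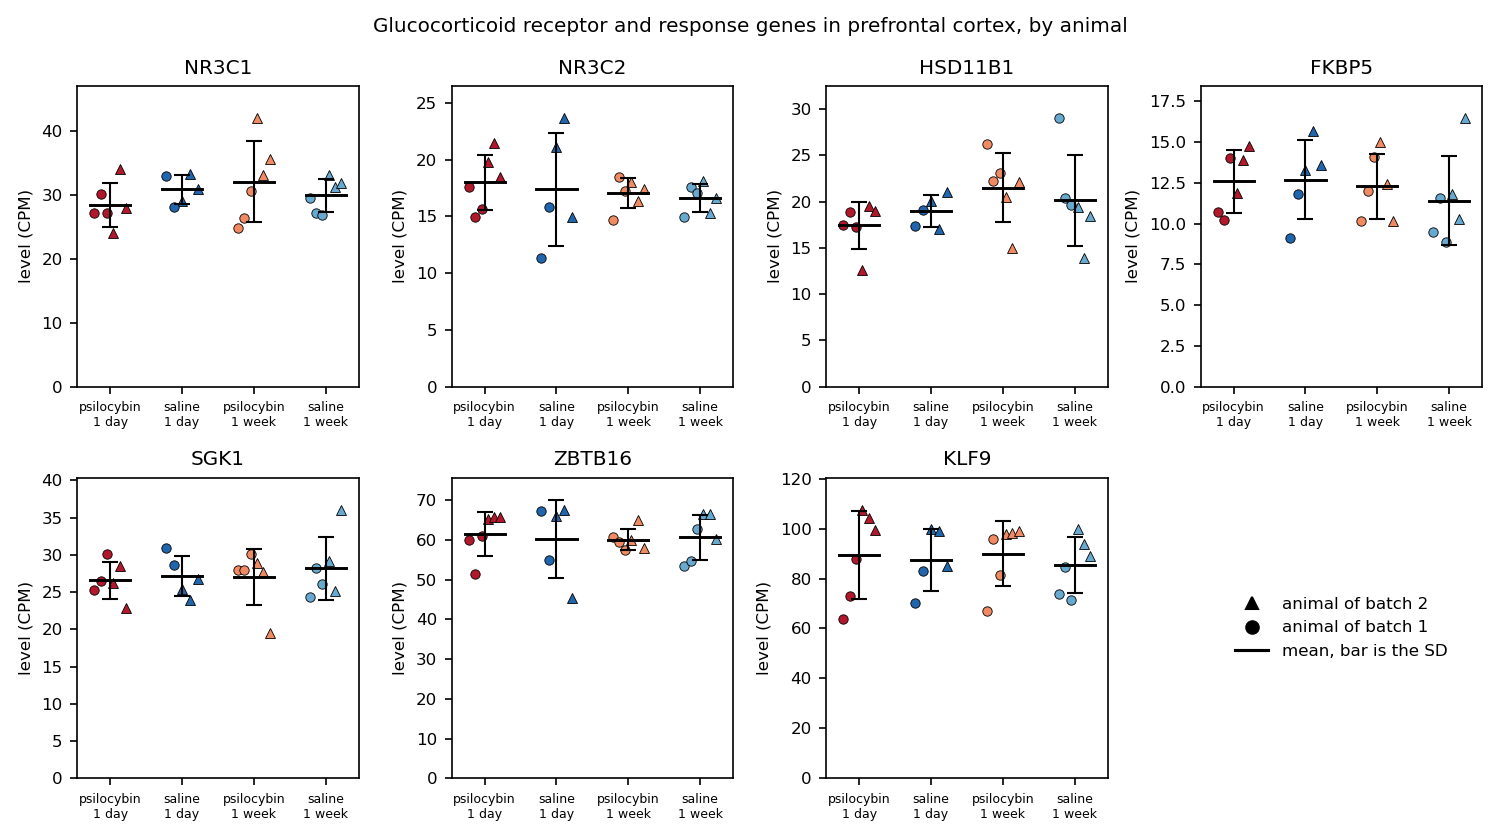
Level of each of the 7 genes in every pig, in CPM on the vertical axes, with the 4 groups along the horizontal axes, psilocybin left of saline at each time. Each point is 1 pig, marked by batch, and the bars are the group mean and SD; the groups overlap in every panel, and the batch 2 points of KLF9 lie above its batch 1 points within each group.

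NR3C1 (ENSSSCG00000014401, susScr11, chromosome 2, 144822078 to 144956456, minus strand) encodes the glucocorticoid receptor. At 1 day it ranged after psilocybin from 24.0 to 34.0 CPM with a median of 27.6. The saline pigs had 32.9, 28.1, 29.1, 33.2 and 30.9 CPM at 1 day. The psilocybin group thus held the lower values, 4 of its 6 pigs lying below the lowest saline pig, but its highest pig was above all of them. The means were 28.4 ± 3.38 CPM (SD, n = 6) after psilocybin and 30.8 ± 2.25 CPM (SD, n = 5) after saline, and the log2 fold change was -0.11 ± 0.10 (SE; 95% confidence interval -0.31 to 0.10; edgeR adjusted p = 1). At 1 week NR3C1 had a lowest, median and highest level of 24.9, 31.9 and 41.9 CPM after psilocybin. After saline these were 26.8, 30.3 and 33.1 CPM. The psilocybin group was the wider one and held both the lowest and the highest pig of the comparison, and the log2 fold change was 0.09 ± 0.10 (SE; -0.11 to 0.29; edgeR adjusted p = 1). At 1 week the batches differed in sign, at -0.03 in batch 1 and 0.20 in batch 2. The span of NR3C1 crosses another gene on the opposite strand, and their exons in the table do not overlap. The deposited count of NR3C1 was fractional in 11 of 23 libraries, within the 7 (FKBP5) to 14 (KLF9) libraries seen over the set.

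NR3C2 (ENSSSCG00000037766, chromosome 8, 80303220 to 80669398, plus strand) encodes the mineralocorticoid receptor. At 1 day its lowest, median and highest levels after psilocybin were 14.97, 18.03 and 21.4 CPM. The saline pigs spread more widely at 1 day, with 11.3, 15.8, 21.1, 23.6 and 14.9 CPM, and enclosed the whole psilocybin group. At 1 week the range was 14.7 to 18.5 CPM (median 17.3) after psilocybin and 14.9 to 18.2 CPM (median 16.9) after saline, so that the groups nearly coincided. The log2 fold changes were 0.07 ± 0.12 (SE; -0.18 to 0.33) at 1 day and 0.03 ± 0.12 (SE; -0.21 to 0.28) at 1 week with edgeR, both with an adjusted p of 1.

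Because the balance of the 2 receptors is often read as a ratio, NR3C2 was also divided by NR3C1 within each pig, both per kilobase of exon. The ratio was 0.881 ± 0.150 at 1 day in psilocybin pigs (SD, n = 6), against 0.779 ± 0.221 in saline pigs (SD, n = 5). At 1 week it was 0.751 ± 0.132 after psilocybin and 0.770 ± 0.0919 after saline (SD, n = 6 each). Over all pigs it ran from 0.474 to 1.14, and NR3C1 was the more abundant of the pair in 21 of 23 pigs. The log2 ratio differed by 0.21 at 1 day (two-sided exact permutation p = 0.351 over 462 arrangements; 0.38 in batch 1 and 0.15 in batch 2) and by -0.05 at 1 week (0.06 and -0.15 within the batches; exact permutation p = 0.714, 924 arrangements). Leaving out 1 pig moved the 1 day value between 0.05 (saline animal 1) and 0.32 (saline animal 3). Neither difference exceeded the spread between pigs.

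HSD11B1 (ENSSSCG00000015616, chromosome 9, 133229659 to 133278531, minus strand) encodes the reductase that regenerates cortisol. At 1 day it had after psilocybin a lowest, median and highest level of 12.6, 18.2 and 19.5 CPM. After saline the 5 pigs had 17.4, 19.1, 20.1, 17.0 and 21.1 CPM. Of the psilocybin pigs 1 lay far below the rest (animal 4), and the other 5 lay within the range of the saline pigs. The log2 fold change was -0.15 ± 0.14 (SE; -0.44 to 0.14; edgeR adjusted p = 1), and without that pig it was -0.07. At 1 week the levels ran from 14.98 to 26.2 CPM (median 22.2) after psilocybin and from 13.9 to 29.0 CPM (median 19.5) after saline, the saline group holding both extremes. The log2 fold change at 1 week was 0.10 ± 0.13 (SE; -0.18 to 0.37; edgeR adjusted p = 1).

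FKBP5 (ENSSSCG00000001549, chromosome 7, 31441760 to 31585293, minus strand) encodes a co-chaperone that lowers the affinity of the glucocorticoid receptor for its hormone, and is itself strongly induced by that receptor, which closes a short feedback loop. In the psilocybin pigs its lowest, median and highest levels at 1 day were 10.2, 12.9 and 14.8 CPM. The saline pigs had 9.11, 11.8, 13.3, 15.7 and 13.6 CPM, which enclosed the psilocybin group. The means were 12.6 ± 1.91 CPM (SD, n = 6) after psilocybin and 12.7 ± 2.44 CPM (SD, n = 5) after saline, and the log2 fold change was 0.02 ± 0.14 (SE; -0.27 to 0.30; edgeR adjusted p = 1). At 1 week the range was 10.1 to 14.99 CPM (median 12.2) after psilocybin and 8.86 to 16.4 CPM (median 10.9) after saline. The saline group again held the lowest and the highest pig, and the log2 fold change was 0.12 ± 0.14 (SE; -0.16 to 0.40; edgeR adjusted p = 1). It was 0.27 in batch 1 and -0.03 in batch 2, and leaving out 1 pig moved it between 0.04 (psilocybin animal 3) and 0.22 (saline animal 6). The confidence intervals of FKBP5 run from 0.827-fold to 1.24-fold at 1 day and from 0.894-fold to 1.32-fold at 1 week.

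SGK1 (ENSSSCG00000021443, chromosome 1, 29625957 to 29753666, plus strand) encodes a kinase that regulates ion channels and transporters and is induced through both corticosteroid receptors. One day after psilocybin it ranged from 22.9 to 30.1 CPM with a median of 26.3, and the saline pigs had 30.9, 28.7, 25.4, 24.0 and 26.8 CPM. The groups covered almost the same span, with a log2 fold change of -0.04 ± 0.11 (SE; -0.26 to 0.19; edgeR adjusted p = 1). At 1 week the lowest, median and highest levels were 19.5, 27.97 and 30.1 CPM after psilocybin and 24.4, 27.2 and 36.1 CPM after saline. Each group had 1 pig apart from the others, a low one after psilocybin (animal 6) and a high one after saline (animal 6), and the log2 fold change was -0.06 ± 0.11 (SE; -0.28 to 0.15; edgeR adjusted p = 1). Within batches the 1 week difference was 0.13 in batch 1 and -0.25 in batch 2, which holds both of those pigs.

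ZBTB16 (ENSSSCG00000030095, chromosome 9, 41639519 to 41836718, plus strand) encodes the zinc finger transcription factor PLZF, a gene induced by glucocorticoids in many cell types. In the psilocybin pigs at 1 day its lowest, median and highest levels were 51.4, 63.1 and 65.8 CPM, and the saline pigs had 67.4, 54.9, 65.9, 67.6 and 45.3 CPM. The low value of 45.3 CPM belongs to animal 5, 1 of the 3 libraries with the highest scores, and the remaining saline pigs spanned nearly the same levels as the psilocybin group. At 1 week ZBTB16 was the most even of the 7 genes after psilocybin, from 57.5 to 64.9 CPM (median 59.7), inside the saline range of 53.3 to 66.6 CPM (median 61.5). The log2 fold changes were 0.04 ± 0.09 (SE; -0.15 to 0.23) at 1 day and -0.01 ± 0.09 (SE; -0.19 to 0.17) at 1 week with edgeR, both with an adjusted p of 1. Without those 3 libraries the 1 day value was -0.05.

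KLF9 (ENSSSCG00000021646, chromosome 1, 223720413 to 223748621, minus strand) encodes a Krüppel-like transcription factor that responds to corticosteroids and thyroid hormone in neurons. One day after psilocybin it ranged from 64.0 to 108 CPM with a median of 93.6, and the saline pigs had 70.2, 82.8, 99.8, 98.9 and 85.0 CPM. At 1 week it ranged from 67.04 to 99.1 CPM (median 96.8) after psilocybin and from 71.4 to 99.7 CPM (median 86.7) after saline. At both times the psilocybin group had the lowest pig and the higher median, and the groups overlapped over nearly their whole ranges. The log2 fold changes were 0.06 ± 0.09 (SE; -0.13 to 0.24) at 1 day and 0.08 ± 0.09 (SE; -0.10 to 0.25) at 1 week with edgeR, both with an adjusted p of 1.

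Counted over the set, 0 of 7 genes passed an adjusted p of 0.05 at 1 day, none had an unadjusted p under 0.05 (0 by edgeR, 0 by DESeq2 and 0 by limma-voom), and DESeq2 and limma-voom also called 0. Of all 15049 genes tested, 0% passed at 1 day. At an unadjusted p under 0.05 were 2.83% of all genes (190 higher and 236 lower) by edgeR, 452 genes by DESeq2 and 397 by limma-voom. At 1 week 0 of 7 passed, 0 had an unadjusted p under 0.05 by any of the 3 tools, 0% of all genes passed, and 300 genes (1.99%) had an unadjusted p under 0.05 with edgeR. The counts of 0 among the 7 genes are those of the background. The median log2 fold change of the 7 genes was 0.02 at 1 day, against 0.00 over all genes, and 0.08 at 1 week, against 0.00 over all genes. The 5 genes higher at 1 week were FKBP5, NR3C1, NR3C2, KLF9 and HSD11B1, none past the threshold. Each library carries its own animal number in the labels, so the p-values measure the spread between pigs.

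**Figure D2:**
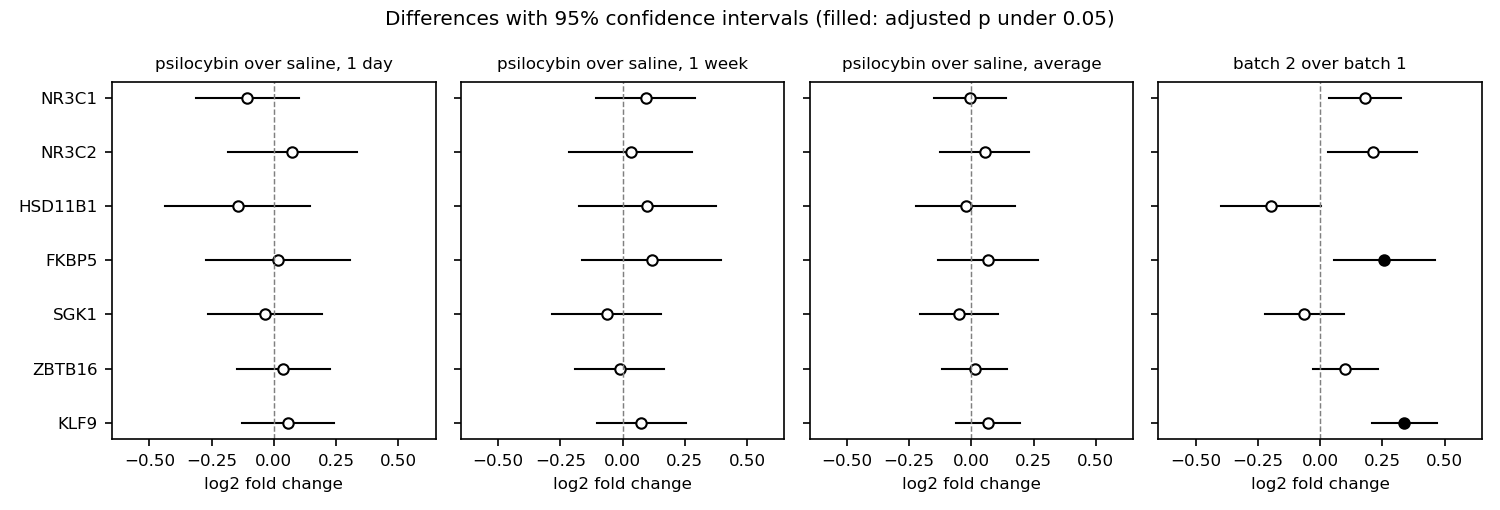
Log2 fold change of each gene on the horizontal axes, with 1 row per gene, for psilocybin over saline at 1 day, at 1 week and averaged over both times, and for batch 2 over batch 1. Points are edgeR estimates (filled where the adjusted p is under 0.05) and bars their 95% confidence intervals; every treatment interval includes 0, and FKBP5 and KLF9 are filled in the batch panel.

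Averaged over both times, which uses all 23 pigs, the estimates ran from -0.05 for SGK1 to 0.07 ± 0.06 (SE) for KLF9, a fold of 1.05 with an interval of 0.958 to 1.14. With edgeR 0 of 7 passed (adjusted p = 0.998 for each), 0 had an unadjusted p under 0.05, and DESeq2 and limma-voom gave the same counts. Over all genes 0% passed, and 457 (3.04%) had an unadjusted p under 0.05. The averaged intervals of the 7 genes lay between 0.857-fold (HSD11B1) and 1.20-fold (FKBP5). The averaged effect thus had the tightest limits of the treatment comparisons.

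The difference between the 1 week effect and the 1 day effect was tested directly. It was largest for HSD11B1, at 0.24 ± 0.19 on the log2 scale (SE; -0.16 to 0.64; edgeR adjusted p = 1), and for NR3C1, at 0.20 ± 0.14 (SE; edgeR adjusted p = 1). Both were positive in each batch, HSD11B1 at 0.08 in batch 1 and 0.36 in batch 2, NR3C1 at 0.08 and 0.34. None of the 7 passed with edgeR, DESeq2 or limma-voom (0 also at an unadjusted p under 0.05), while 0% of all genes passed and 304 (2.02%) had an unadjusted p under 0.05. No gene of the set was therefore shown to respond differently at the 2 times.

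The 1 week and 1 day pigs were also compared within each treatment. After psilocybin HSD11B1 averaged 21.5 ± 3.72 CPM at 1 week and 17.5 ± 2.54 CPM at 1 day (SD, n = 6 each). The 1 week pigs were higher on average but 1 of them, at 14.98 CPM, lay within the 1 day range. The log2 fold change was 0.30 ± 0.13 (SE; 0.02 to 0.58; 0.41 in batch 1 and 0.16 in batch 2), the only one of the set with an unadjusted p under 0.05 in a comparison of treatment or time by edgeR, as by DESeq2 and limma-voom. Adjusted over all genes it was far from the threshold (edgeR adjusted p = 0.999). After saline, HSD11B1 differed by 0.05 ± 0.14 (SE) on the log2 scale between 1 week and 1 day, and the difference between these 2 time effects is the interaction value of 0.24 given above. NR3C1 was 0.17 ± 0.10 higher on the log2 scale at 1 week after psilocybin (SE; edgeR adjusted p = 0.999), with opposite signs in batch 1 (-0.05) and batch 2 (0.35).

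In these time comparisons 0 of 7 genes passed after psilocybin, with 0% of all genes called by edgeR (1 gene by DESeq2, 0 by limma-voom), 479 (3.18%) at an unadjusted p under 0.05 and 1 of the 7 at that threshold by edgeR, DESeq2 and limma-voom alike. After saline 0 of 7 passed, with 0% of all genes called by edgeR (1 by DESeq2, 0 by limma-voom), 303 (2.01%) at an unadjusted p under 0.05 and 0 of the 7 at that threshold by each tool. The lowest estimate after saline was that of FKBP5, at -0.13 ± 0.14 (SE). The median log2 fold change of the 7 genes was 0.02 after psilocybin and 0.00 after saline, against 0.01 and 0.00 over all genes.

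Batch 2 and batch 1 were compared in the same model because the label divides every group. Of all 15049 genes 32.9% passed, 2428 higher and 2527 lower in batch 2, and 2 of the 7 genes passed, KLF9 and FKBP5, both higher. A share of 2 in 7 is near that background. KLF9 averaged 97.7 ± 6.09 CPM (SD, n = 12, range 85.0 to 108) in batch 2 and 77.4 ± 9.76 CPM (SD, n = 11, range 64.0 to 95.9) in batch 1. Within each of the 4 groups, every batch 2 pig was above every batch 1 pig, with means of 104 against 75.0 CPM 1 day after psilocybin, 94.6 against 76.5 after saline, 98.4 against 81.4 at 1 week after psilocybin, and 94.2 against 76.5 after saline. Its log2 fold change was 0.34 ± 0.06 (SE; 0.21 to 0.47; edgeR adjusted p = 0.000531), and the adjusted p ranged from 1.39e-06 to 0.00161 over all alternatives.

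FKBP5 averaged 13.3 ± 2.03 CPM (SD, n = 12) in batch 2 and 11.1 ± 1.80 CPM (SD, n = 11) in batch 1, with a log2 fold change of 0.26 ± 0.10 (SE; 0.06 to 0.46; edgeR adjusted p = 0.0458). The call ended when any 1 of 11 pigs was left out (psilocybin 1 day animals 2, 5 and 6, psilocybin 1 week animals 1 and 4, saline 1 day animals 1, 2 and 4, saline 1 week animals 3, 4 and 6), with log2 fold changes between 0.20 and 0.27 and adjusted p-values between 0.0514 and 0.106. Of the receptors, NR3C1 had 0.18 (edgeR adjusted p = 0.0527) and NR3C2 0.21 (adjusted p = 0.0662), just short of the threshold, and both passed with DESeq2 (adjusted p = 0.0282 and 0.0434). NR3C1 also passed with RLE size factors (adjusted p = 0.0366). ZBTB16 (0.10, edgeR adjusted p = 0.223), SGK1 (-0.06, adjusted p = 0.546) and HSD11B1 (-0.20, adjusted p = 0.123) did not pass. Without the 3 libraries with the highest scores, 5 of the 7 passed, adding NR3C1, NR3C2 and ZBTB16, and the same 5 passed without the fourth as well.

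Cell type markers also differed between batches, where 32.9% of all genes passed. Of the 7 tested microglial markers (TMEM119 had no match by symbol), all 7 were lower in batch 2, where they summed to 138 to 277 CPM, against 217 to 335 CPM in batch 1. Of 5 excitatory neuron markers 3 passed as higher, with sums of 4441 to 5650 CPM in batch 2 and 4023 to 5463 CPM in batch 1. The general neuron markers leaned the other way. Of these 5, 1 passed as higher and 2 as lower, with a median sum of 5264 CPM in batch 2 and 5761 CPM in batch 1. Of 5 inhibitory neuron markers 1 passed as higher and 1 as lower. Of 8 astrocyte markers 4 passed as higher and 1 as lower. The 3 tested red blood cell markers were lower in batch 2, at 11.6 to 75.6 CPM in sum against 21.8 to 496 CPM in batch 1. The part of these markers in the KLF9 and FKBP5 values was not tested. Between psilocybin and saline, 8 of 8 astrocyte markers had a positive log2 fold change at 1 day, none past the adjusted threshold of edgeR, with sums of 5425 to 6458 CPM after psilocybin and 4296 to 6405 CPM after saline. At 1 week 7 of 7 microglial markers were positive, again none past it, with sums of 196 to 335 CPM after psilocybin and 207 to 295 CPM after saline. Other lists were as one-sided, with none past the threshold. At 1 day 0 of 5 neuron markers and 5 of 5 mural cell markers were positive, and at 1 week 0 of 7 oligodendrocyte markers. Without the drug, 8 of 8 astrocyte markers were also positive for 1 week against 1 day after saline.

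If pigs with a high level of 1 response gene had high levels of the others, the response genes among the 7 would correlate across animals. The pairs tested also included the receptors and HSD11B1. Over 21 pairs and 23 pigs, 14 Pearson correlations of log2 CPM were positive. A permutation test adjusted over the pairs was passed by 3, all among FKBP5, NR3C2 and KLF9. Between response genes, only FKBP5 with KLF9 passed. Many genes outside the set followed KLF9 more closely. Of 12148 genes ranked by r with KLF9, NR3C2 stood at place 1775 and FKBP5 at place 2098. The share of all gene pairs that would pass was not computed. NR3C2 and KLF9 had r = 0.638 (permutation p = 0.00084, adjusted p = 0.0176) and Spearman's rho = 0.715 (permutation p = 0.0002, adjusted p = 0.0042). Without the 2 pigs farthest from the NR3C2 median r was 0.604. Within batches it was 0.403 in batch 1 (permutation p = 0.223) and 0.686 in batch 2 (permutation p = 0.0126), and the call held whichever pig was left out. Centred on treatment, time and batch it was lost (r = 0.524, permutation p adjusted 0.11).

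The other relations that passed were less firm. FKBP5 and KLF9 had r = 0.588 (permutation p = 0.00356, adjusted p = 0.0374), rho = 0.513 (adjusted p = 0.0932) and r = 0.581 without the 2 farthest pigs. Within batches r was 0.684 in batch 1 (unadjusted permutation p = 0.0213) and -0.21 in batch 2 (permutation p = 0.519). Once adjusted over the pairs, none passed in either batch alone, and the difference between the batches was not tested. Leaving out any 1 of 10 pigs ended the call of FKBP5 and KLF9 (psilocybin 1 day animals 2, 5 and 6, psilocybin 1 week animals 1 and 4, saline 1 day animals 1, 3 and 4, saline 1 week animals 1 and 3, with adjusted p between 0.0538 and 0.0762). FKBP5 and NR3C2 had r = 0.548 (permutation p = 0.00594, adjusted p = 0.0416), rho = 0.492 (adjusted p = 0.0987) and r = 0.658 without the 2 farthest pigs. Within batches r was 0.463 (permutation p = 0.15) and 0.344 (permutation p = 0.273) in batches 1 and 2, and the call ended without any 1 of 11 pigs (psilocybin 1 day animals 2, 5 and 6, psilocybin 1 week animals 1 and 4, saline 1 day animals 1 to 4, saline 1 week animals 1 and 5; adjusted p between 0.0508 and 0.169). Neither passed after centring on treatment, time and batch.

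Among the pairs that did not pass over all pigs were FKBP5 and SGK1, both classic receptor targets, and the receptors themselves. FKBP5 and SGK1 had r = 0.293 (permutation p adjusted 0.408) over all pigs, with 0.509 in batch 1 and 0.502 in batch 2 (permutation p = 0.11 and 0.0941 within these batches). Without the 2 pigs farthest from the FKBP5 median r was 0.111. Centred on treatment, time and batch, it was the 1 of the 21 pairs that passed (r = 0.63, permutation p = 0.00119, adjusted p = 0.025). The permutation made no allowance for the means taken out, so this p tends to be too small and the call is not firm. That call was lost without psilocybin 1 week animal 4 or 6 or saline 1 week animal 5 or 6 (r between 0.506 and 0.73 over all pigs left out, highest adjusted p = 0.119). The receptors NR3C1 and NR3C2 had r = 0.0448. The largest negative value was that of ZBTB16 and HSD11B1, at r = -0.48 (permutation p adjusted 0.116).

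**Figure D3:**
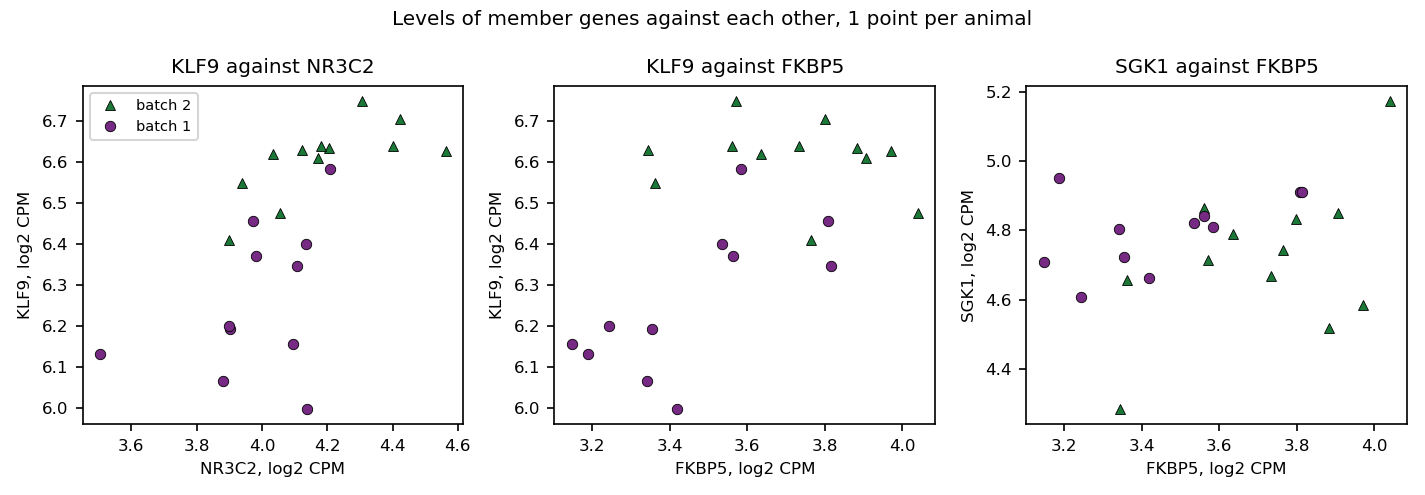
Levels of KLF9 against NR3C2, KLF9 against FKBP5 and SGK1 against FKBP5, in log2 CPM on both axes. Each point is 1 pig, marked by batch. For FKBP5 and KLF9 r was 0.684 in batch 1 and -0.21 in batch 2. No pair passed in either batch alone once adjusted over the pairs, and the difference between the batches was not tested.

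As a description of which genes followed each member most closely over the 23 libraries, Pearson's r was ranked over 12148 other genes with a symbol and at least 1 CPM on average. KLF9 had the closest neighbours, DCLK1 (r = 0.959) and GABRA2 (r = 0.953), with 154 genes at 0.9 or above and 710 at 0.8 or above. SGK1 was followed by PDE8A (0.891) and LRRC71 (0.886), with 61 genes at 0.8 or above, and ZBTB16 by LAMB1 (0.862) and ATP2B1 (0.858), with 13. The nearest to NR3C2 were CACNA2D1 (0.82) and EXOC8 (0.816). FKBP5 had 1 gene at 0.8 or above, CD38 (0.842), followed by WWC2 (0.79). NR3C1 and HSD11B1 had none, their nearest being IRAG1 (0.737) and TRIM56 (0.735) for NR3C1 and HIBADH (0.779) and EPHX4 (0.768) for HSD11B1. Ranked by closeness to FKBP5, KLF9 stood at place 421, NR3C2 at 750, SGK1 at 3333, NR3C1 at 3452, ZBTB16 at 5503 and HSD11B1 at 7859. These correlations share library depth, batch and tissue makeup, and no p is given for them.

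Because the tissue mixes cell types, the log2 levels of the 7 genes were also set against the mean log2 level of 9 cell type marker lists, in 63 relations chosen after the data were seen. Of these 10 passed a permutation test adjusted over the 63, and 9 by Spearman's rho. KLF9 followed the excitatory neuron markers most closely, with r = 0.84 (permutation p = 1e-05, the smallest the resampling can give, adjusted p = 0.00063), rho = 0.855 and r = 0.815 without the 2 pigs farthest from the median. Within batches it was 0.67 in batch 1 (permutation p = 0.0179) and 0.565 in batch 2 (permutation p = 0.053). The general neuron markers were also 1 of the 9 lists, and their relation with KLF9 did not pass. KLF9 ran against the microglial markers, with r = -0.76 (permutation p adjusted 0.000945), rho = -0.805, -0.777 without the 2 farthest pigs, and -0.581 and -0.42 within batches 1 and 2. With the astrocyte markers it had r = 0.693 (permutation p adjusted 0.00525), rho = 0.646, 0.578 without the 2 farthest pigs, and 0.47 and 0.278 within the batches. These 3 calls held whichever pig was left out, but after centring on treatment, time and batch those with the microglial (r = -0.442, permutation p adjusted 0.121) and astrocyte markers (r = 0.423, adjusted 0.141) were lost.

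The other 7 relations that passed were lost when any 1 of 9 to 19 pigs was left out. They were those of endothelial markers with NR3C2 (r = 0.58), ZBTB16 (0.582) and FKBP5 (0.549), of excitatory neuron markers with NR3C2 (0.566) and HSD11B1 (-0.567), of microglial markers with NR3C2 (-0.56), and of oligodendrocyte precursor markers with KLF9 (0.556). Adjusted over the 63 relations, 0 passed within batch 1 alone and 0 within batch 2 alone, and 6 passed after centring on treatment, time and batch, of which 2 were among the 10: KLF9 with excitatory neuron markers (r = 0.751, permutation p adjusted 0.00252) and NR3C2 with endothelial markers (r = 0.68, adjusted 0.00924). The other 4 were ZBTB16 (r = -0.78) and NR3C2 (-0.58) with oligodendrocyte markers, and NR3C1 (-0.584) and SGK1 (-0.576) with inhibitory neuron markers. The permutation after centring made no allowance for the means taken out. Its p-values thus tend to be too small, and some of these 6 calls may not hold.

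Beyond the 7 genes, 62 further genes of the pathway were listed in 4 groups, of which 54 were tested. They are chaperones of the receptors (10 tested), coregulators that the receptors recruit (10), genes of steroid supply and stress peptides (8), and other genes known to be induced by glucocorticoids (26). In the comparisons of psilocybin with saline 0 of the 54 passed with edgeR, and 1 at 1 day and 2 at 1 week had an unadjusted p under 0.05. DESeq2 called 0 at both times, with 1 and 2 at that unadjusted threshold, and limma-voom called 0, with 1 and 1. In the other comparisons of treatment or time each tool called 0 of the 54, with 0 to 2 at the unadjusted threshold. At 1 day the median log2 fold changes of these groups were 0.01, 0.08, 0.08 and 0.07, against 0.00 over all genes, with 5 of 10, 8 of 10, 6 of 8 and 18 of 26 genes positive. At 1 week they were -0.04, 0.16, 0.00 and 0.03, with 1 of 10, 8 of 10, 4 of 8 and 15 of 26 positive.

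The genes with the smallest p at 1 day were FOXO1, HSD11B2 and SRD5A1. FOXO1, a transcription factor of fasting metabolism, averaged 12.5 ± 2.14 CPM (SD, n = 6) after psilocybin and 10.5 ± 1.39 CPM (SD, n = 5) after saline, with overlapping groups (log2 fold change 0.26 ± 0.11, SE; edgeR adjusted p = 1). HSD11B2, which inactivates cortisol, was at 0.855 ± 0.253 CPM (SD, n = 6) after psilocybin and 0.565 ± 0.193 CPM (SD, n = 5) after saline, a low level (log2 fold change 0.62 ± 0.36, SE; edgeR adjusted p = 1). SRD5A1, a reductase that starts the breakdown of steroids to neurosteroids, had a log2 fold change of 0.24 ± 0.17 (SE; edgeR adjusted p = 1). At 1 week the smallest p was that of AVP, the stress peptide vasopressin, whose lowest, median and highest levels were 2.73, 4.40 and 6.37 CPM after psilocybin and 1.09, 2.17 and 3.89 CPM after saline. The AVP groups overlapped, and the log2 fold change was 0.88 ± 0.32 (SE; 1.09 in batch 1 and 0.70 in batch 2; edgeR adjusted p = 1). NRIP1 and NCOA2, a corepressor and a coactivator of nuclear receptors, had log2 fold changes of 0.43 ± 0.21 and 0.29 ± 0.15 (SE), each with an edgeR adjusted p of 1.

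Between batches 15 of the 54 pathway genes passed with edgeR, 9 higher and 6 lower in batch 2, against 32.9% of all genes. The coregulator NRIP1 (0.85, edgeR adjusted p = 0.000426) and the insulin receptor substrate IRS2 (0.69, adjusted p = 0.00135) had the smallest p-values among the higher genes, followed by NCOA2 (0.46), SRD5A1 (0.47), the cochaperone ST13 (0.23) and FOXO3 (0.25). NFKBIA, the inhibitor of NF-kappaB, was lower (-0.37, edgeR adjusted p = 0.00234), as were FKBP4 (-0.23), the co-chaperone that opposes FKBP5 on the receptor, DDIT4 (-0.22) and BAG1 (-0.20). The BAG1 call ended without psilocybin 1 day animal 1 or saline 1 week animal 1 (edgeR adjusted p = 0.0547 and 0.0558).

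**Figure D4:**
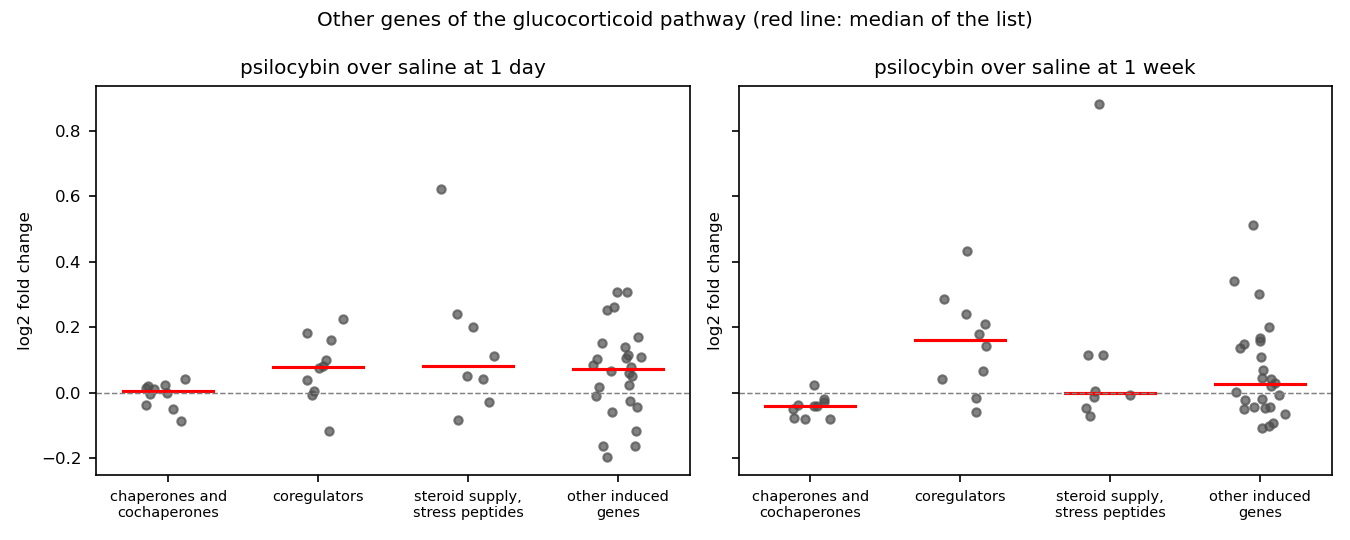
Log2 fold change of the pathway genes, psilocybin over saline, at 1 day and at 1 week, on the vertical axes, with 1 point per gene in each of the 4 lists. Red lines mark the medians (0.16 for the coregulators at 1 week), and the highest point at 1 week is AVP at 0.88, which did not pass.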

How the data were processed

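The authors deposited 1 table of estimated counts per Ensembl gene for 23 libraries of pig prefrontal cortex. Per the submitters' processing notes, reads were handled with fastp 0.20.0, STAR 2.6c and featureCounts 1.5.1 on susScr11. Per the file headers, counting was unstranded and shared reads among overlapping genes in fractions. Of all values 72.2% are whole at a tolerance of 0. Fractional counts also occurred in genes whose span crosses no other gene of the table, such as KLF9 (14 of 23 libraries). The source of those fractions was not tested. Deposited counts were rounded, which moved library totals by at most 0.00127%. A genome sequence was not used here, so no sequences are shown, and positions are spans of the listed exons.

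The filter filterByExpr (count of at least 10, total of at least 15) left 15049 genes. These were scaled by TMM and tested by quasi-likelihood in edgeR 4.0.16 (R 4.3.3, two-sided, robust), in 1 model with 4 group terms and batch, adjusted by Benjamini-Hochberg over all genes. CPM uses TMM-adjusted totals. Correlations use log2 CPM (prior count 2) and 100000 permutations, two-sided. As alternatives, the fits were rerun with RLE size factors, without a filter, with a floor of 1 CPM in 5 libraries, with limma-voom (limma 3.58.1) or DESeq2 1.42.0, without a batch term, on the compared groups or 1 batch alone, and leaving out the 3 libraries with the highest scores on the first principal component or each pig in turn. Correlations were also run with a prior count of 0.5 and after centring. The centred values were permuted freely, without allowance for the means taken out, so p-values after centring tend to be too small. Only the edgeR fit was tried on simulated counts, for psilocybin against saline at 1 day, and the outcome is not given here.

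The members, lists and rules were chosen with earlier results of these data known. The rule names all members, the 3 pathway genes with the smallest p at each time, any pathway gene past the threshold (at most 10 a comparison), and the 2 genes most like each member. Added after the data were seen were the receptor ratio, the marker relations, the fit without 4 libraries, and centring with each pig left out. No pig is shared between groups, so no pairing was used. The series states 6 pigs in each group, and 1 saline pig at 1 day was not analysed here.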

Additional observations from a re-analysis of the deposited data

Results flagged for a closer look

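In 28 groups of 1 gene and 1 treatment and time, 2 pigs lay farther from the rest than Dixon's 95% limit allows, where chance flags about 1 in 20 groups. SGK1 in psilocybin 1 week animal 6 was at 19.51 CPM, while the other 5 pigs of its group had 27.67 to 30.08 CPM, so that the gap took 0.772 of the group's range. This library is also 1 of the 3 with the highest scores on the first principal component. HSD11B1 in psilocybin 1 day animal 4 was at 12.59 CPM, while the other 5 pigs had 17.28 to 19.49 CPM, a gap of 0.68 of the range. The cause of either value was not tested.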

How the results depend on the processing

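In the 6 comparisons of treatment and time, 0 of 7 genes passed under any of 33 alternatives, 10 of them other than leaving out 1 pig. Of 1476 alternative values of the 47 fold changes reported, 1407 kept their direction and side of the threshold, 36 reversed, 14 no longer passed and 19 newly passed. No main value that reversed exceeded 0.17 in size, and the cause of the reversals was not tested. In batch 1 alone the log2 fold changes of psilocybin over saline at 1 day were -0.0853 (ZBTB16) and -0.028 (KLF9), and at 1 week -0.0307 (NR3C1), 0.126 (SGK1) and 0.0600 (ZBTB16). The ZBTB16 change between the times was then 0.145, the SGK1 average 0.000568, the 1 week log2 ratio of NR3C2 to NR3C1 0.0552, and 1 week against 1 day after psilocybin gave 0.0538 (NR3C2) and -0.0531 (NR3C1). In batch 2 alone the 1 day values were -0.086 (FKBP5), -0.0135 (NR3C2) and 0.0153 (SGK1), FKBP5 had -0.0291 at 1 week, and HSD11B1 had -0.195 for 1 week against 1 day after saline. Without the 3 libraries with the highest scores ZBTB16 had -0.0542 at 1 day and 0.0523 for the change. FKBP5 at 1 day had -0.00358 with limma-voom and -0.0161 with no batch term.

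Leaving out each pig in turn gave, at 1 day, -0.0605 to 0.077 (FKBP5), -0.0342 to 0.19 (NR3C2), -0.0727 to 0.00959 (SGK1) and -0.0544 to 0.106 (ZBTB16). At 1 week it gave -0.0173 to 0.0755 (NR3C2), -0.101 to 0.0267 (SGK1), -0.0325 to 0.0105 (ZBTB16) and -0.122 to 0.0192 (log2 ratio of the receptors). The ZBTB16 change ran from -0.117 to 0.0478, and HSD11B1 after saline, 1 week against 1 day, from -0.069 to 0.135. The count of 2 members passing between batches was 4 with DESeq2, 5 without the 3 libraries, 5 without the fourth as well and 1 to 5 without 1 pig. The count of member pairs that passed, 3 over all pigs, was 1 after centring (FKBP5 with SGK1, outside the 3), 0 in batch 1 alone, 0 in batch 2 alone and 1 to 3 without 1 pig. That of marker relations, 10 over all pigs, was 6 after centring (2 of the 10 and 4 others), 0 in either batch alone and 3 to 11 without 1 pig. Both counts after centring may be too high, since the permutation made no allowance for the means taken out. BAG1 did not pass between batches without the filter (-0.17).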
